A study of Mus musculus with 13 samples.

Results

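The Hedgehog and ectodysplasin (Eda) pathways were followed in mouse submandibular salivary gland through 10 genes: Shh, Ptch1, Smo, Gli1, Gli2, Gli3, Hhip, Eda, Edar and Edaradd. They were chosen by symbol from the 23364 genes for which an expression value was given in every sample. The choice used no rule on their values, but earlier results of these data were known. RNA of submandibular glands dissected from C57BL/6 mice was sequenced in 13 samples: 3 of embryonic day E14.5, and 2 of each of the later ages E16.5, E18.5, P5 (postnatal day 5), 4wk and 12wk (weeks of age). No sample carried a genetic change or a treatment. Each embryonic sample pooled glands of several animals, the sex of the embryos and of the P5 mice was not ascertained, and the 4wk and 12wk mice were male, so that age and sex cannot be told apart where adult samples are compared. The samples of the embryonic days formed the stage embryo (n = 7), P5 the neonatal stage (n = 2), and 4wk with 12wk the adult stage (n = 4), the grouping that the study used to ask which genes change as the gland matures. The spread within a stage thus includes differences between its ages. This holds for every SD, SE and p given for a comparison of stages.

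In Hedgehog signalling, a secreted ligand such as sonic hedgehog (Shh) binds the receptor Patched 1 (Ptch1), which otherwise holds the membrane protein Smoothened (Smo) inactive, and Smo then acts through the Gli transcription factors. Ptch1, Gli1 and the decoy receptor Hhip are themselves induced by the pathway in many tissues, so their RNA is often read as its output. Ectodysplasin, a ligand of the tumour necrosis factor family, binds the receptor Edar, which recruits the adaptor Edaradd to activate NF-kappaB, and its loss in mouse and human disturbs hair, teeth and exocrine glands including the salivary gland. In the developing salivary gland both pathways are known to act on branching and on the opening of ducts.

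Expression was given as FPKM, the reads of a gene divided by its length and by the total reads on genes of that sample. Levels of different genes can thus be compared per length, as far as the lengths used hold. Those lengths, recovered from the FPKM steps, differed most from the GENCODE exons for Edaradd (given below), Hhip (9078 against 4896 bases), Ptch1 (4305 against 6576) and Eda (5111 against 6825). The reads on genes per sample, recovered from the steps of the low values, were between 5817293 in 4wk replicate 1 and 48314162 in P5 replicate 1. The 10 highest genes of a sample took between 5.9% and 31.1% of all FPKM up to P5 and from 48.1% to 61.1% of it in adult glands, which lowers every other gene there. Values are therefore given as deposited and also rescaled by median-of-ratios factors, the scale on which the median gene changes little. The median log2 fold change of all 14650 tested genes from embryo to adult was -0.75 with deposited and -0.08 with rescaled values. Mesenchyme markers (9 genes, none at 0 in any stage) summed to between 2206 and 3333 FPKM in the embryo, 1828 and 2019 FPKM in the P5 samples, and from 291 to 581 FPKM in adult glands. Epithelium markers (8 genes, none at 0) summed to between 411 and 1597 FPKM in the embryo, 1295 and 1545 FPKM in the P5 samples, and from 695 to 788 FPKM in adult glands. The labelled tissue of the adult samples was checked by the granular duct markers of the submandibular gland (4 genes). They summed to 10.1 to 126 FPKM in embryonic, 552 and 586 FPKM in P5 and 24500 to 39180 FPKM in adult glands. According to the authors these ducts finish differentiating by puberty, so the embryonic and P5 values do not check the tissue. Markers of the adjoining sublingual gland (3 genes) summed to between 0.137 and 0.252 FPKM at E14.5 and to 18.25 and 38.0 FPKM at E16.5. At E18.5 they summed to 57.76 and 60.95 FPKM, and at P5 to 75.6 and 44.0 FPKM. The sums were 103 and 82.3 FPKM at 4wk and 0.0574 and 2.72 FPKM at 12wk. At 4wk 2 of these genes were at 0 in both samples, so that sum came from the remaining gene. At 12wk 1 gene was at 0 in replicate 1 and 0 genes in replicate 2. In these whole glands, fewer cells of a type and less RNA per cell cannot be told apart. This holds also where a ratio to markers is given, since the RNA of the markers per cell can change with age. The part of cell makeup in the changes below was not tested. E14.5 replicate 1 stood apart from the other E14.5 samples, with 3367 FPKM of erythroid markers against 485 and 868, 621 FPKM of skeletal muscle markers against 248 and 184, and 17.3 FPKM of acinar markers against 326 and 283. Skeletal muscle markers were also high at E16.5, with 862 and 1090 FPKM. Differences between stages that rest on E14.5 replicate 1 are given with and without it. For the step from E14.5 to E16.5 this is done for the number of calls only.

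Between embryo and adult, Smo, Gli2 and Gli3 fell with both scalings, Eda and Gli1 fell with deposited values, and Edaradd rose with rescaled values. Calls required a change in log2(FPKM + 1) of 1 or more in either direction, with an adjusted p below 0.1 (limma, Benjamini-Hochberg over all tested genes). From the 10 genes, 8 reached 1 FPKM in some sample and were tested, while Shh and Hhip did not. With deposited values 5 of the 8 were called lower and 0 higher in the adult, where 38% of all tested genes were called lower and 5.58% higher. With rescaled values 3 were called lower and 1 higher, where 14.7% of all tested genes were called lower and 13.8% higher. Without E14.5 replicate 1 there were again 5 calls with deposited and 4 with rescaled values. The +1 understates changes of low genes, and limma-voom on the recovered reads, an alternative chosen after seeing the data, called all 8 (7 lower, 1 higher), where it called 49.8% of all genes lower and 7.82% higher. With rescaling, the same tool called 5 lower and 1 higher, beside 21.6% of all genes lower and 18% higher. The median log2 fold change of the 8 genes was -1.26 with deposited and -0.82 with rescaled values.

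**Figure D1:**
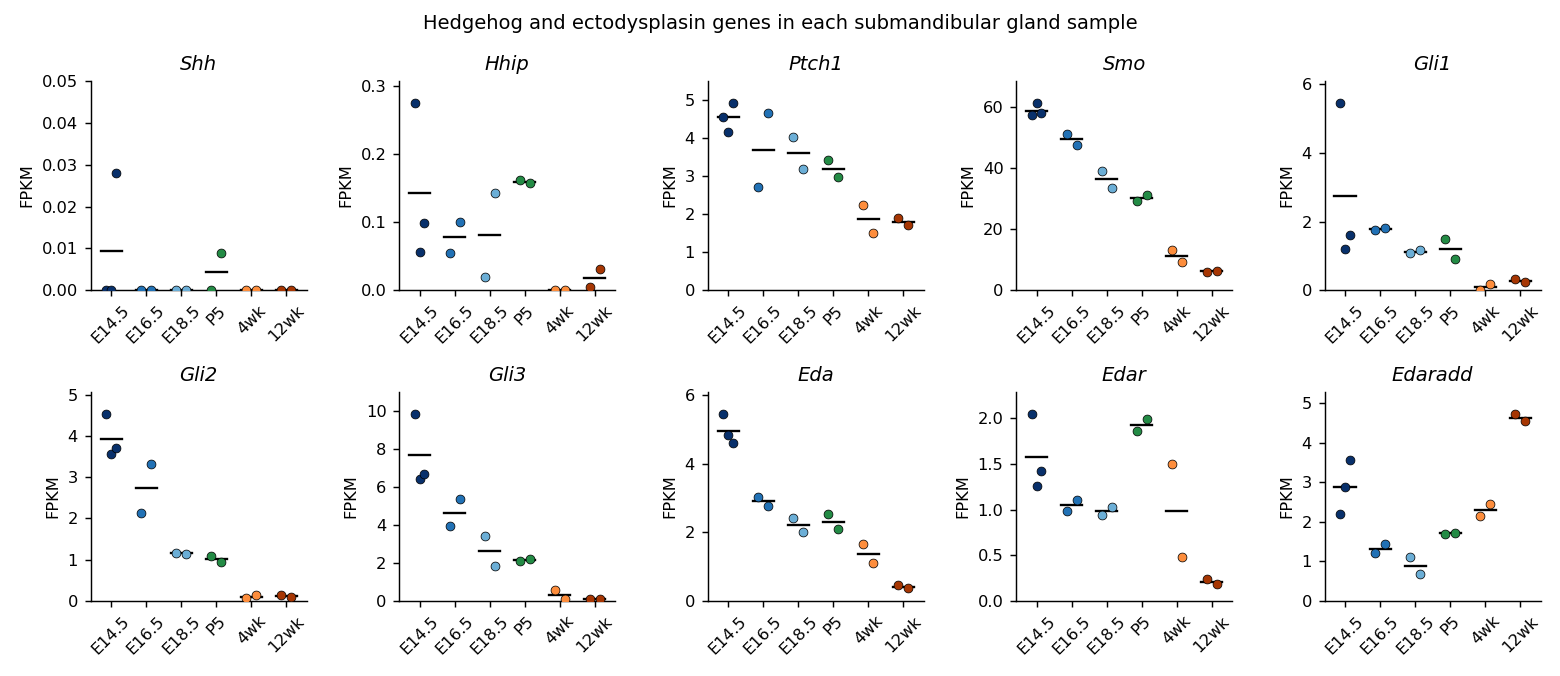
FPKM (linear axis, own scale per panel) of the 10 genes in each of the 13 samples by time point, with points for samples and bars for time point means. Smo stepped down from 58.9 FPKM at E14.5 to 6.17 FPKM at 12wk, Gli2 and Gli3 were near 0 in the adult, the mean of Edar was highest at P5, where its values overlapped with E14.5, and that of Edaradd at 12wk.

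**Figure D2:**
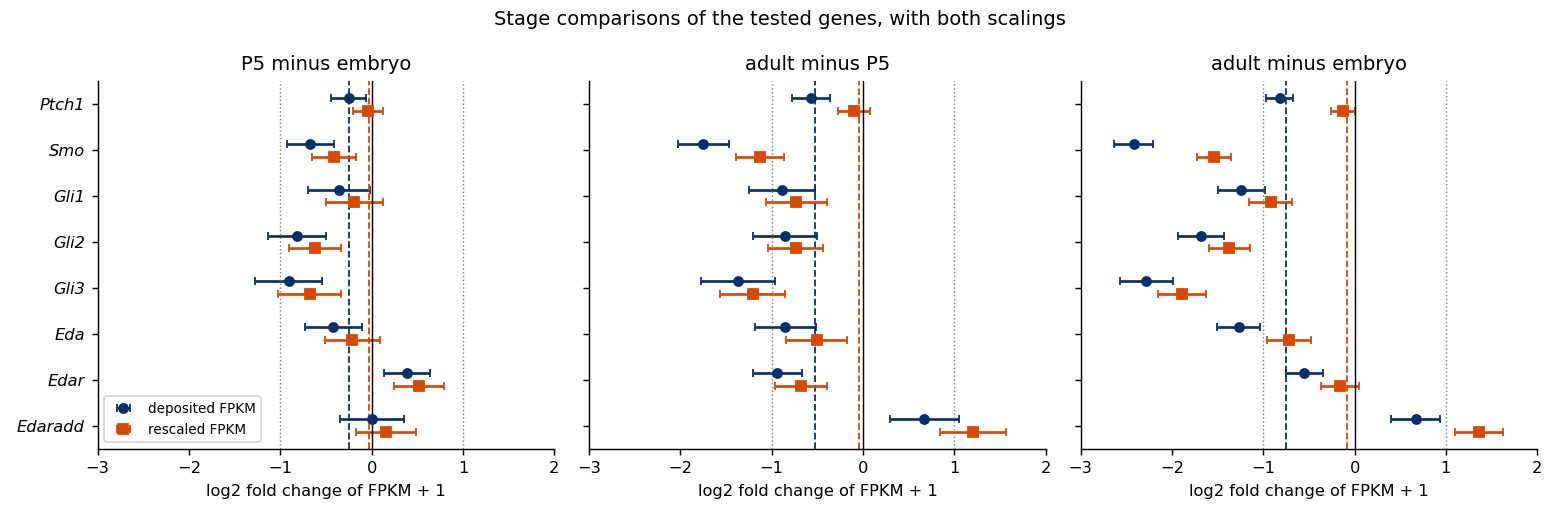
Log2 fold change of FPKM + 1 with its standard error for the 8 tested genes in 3 stage comparisons, with deposited (circles) and rescaled (squares) FPKM. Dashed lines mark the median of all 14650 tested genes on each scale, -0.75 and -0.08 for adult minus embryo, and dotted lines a log2 fold change of 1 in size. Smo, Gli2 and Gli3 lie beyond the dotted line with both scalings in that comparison.

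The genes that fell with both scalings are shown with the 250 bases before their start site (RefSeq promoter windows on GRCm38.p6, a build other than the mm9 of the expression values), beside Edaradd, which rose with rescaled values. Capitals mark CCACCC, the core of the motif to which Gli proteins bind, on either strand (GGGTGG on the strand shown).
Smo, chr6:29735247-29735496, plus strand: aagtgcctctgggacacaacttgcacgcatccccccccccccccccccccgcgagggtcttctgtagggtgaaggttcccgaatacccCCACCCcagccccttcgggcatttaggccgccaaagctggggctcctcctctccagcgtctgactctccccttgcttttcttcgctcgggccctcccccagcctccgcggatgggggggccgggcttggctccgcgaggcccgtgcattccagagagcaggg
Gli2, chr1:119053620-119053869, minus strand: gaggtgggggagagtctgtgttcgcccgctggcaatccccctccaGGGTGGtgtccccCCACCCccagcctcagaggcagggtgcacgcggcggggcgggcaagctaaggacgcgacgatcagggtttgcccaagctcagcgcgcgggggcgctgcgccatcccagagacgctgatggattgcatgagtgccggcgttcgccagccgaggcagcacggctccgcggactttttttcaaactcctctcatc
Gli3, chr13:15463473-15463722, plus strand: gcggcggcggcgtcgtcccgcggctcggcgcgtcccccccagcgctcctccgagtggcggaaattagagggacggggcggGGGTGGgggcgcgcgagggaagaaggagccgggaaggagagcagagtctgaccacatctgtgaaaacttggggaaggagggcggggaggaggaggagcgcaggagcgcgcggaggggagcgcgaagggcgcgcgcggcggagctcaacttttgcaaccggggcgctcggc
Edaradd, chr13:12520451-12520700, minus strand: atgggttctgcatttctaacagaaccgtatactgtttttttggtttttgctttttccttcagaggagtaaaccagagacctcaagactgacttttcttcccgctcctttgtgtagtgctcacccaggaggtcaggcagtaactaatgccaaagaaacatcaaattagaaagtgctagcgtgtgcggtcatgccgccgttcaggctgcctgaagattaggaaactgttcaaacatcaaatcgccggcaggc
Smo and Gli3 each held 1 such core, Gli2 held 2 and Edaradd held 0. Windows from 250 bases before to 50 bases after the start were listed for 8 of the 10 genes, and CCACCC was in 6 of these 8 (Smo, Gli2, Gli3, Hhip, Edar and Eda) against 31.5% of all 32851 windows. The longer GACCACCCA, which contains the core, was in 0 of the 8 and in 0.253% of all windows, and the NF-kappaB motif was in 0 of the 8 and in 4.51% of all windows. The windows of Smo, Gli2 and Gli3 were rich in G and C (68.4%, 67.2% and 72.8% of the 250 bases), that of Edaradd less so (46.0%). These matches describe letters in the windows and were not tested for binding.

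Shh, the ligand, was at or near the limit of detection at all ages. It lies on chromosome 5 (mm9 28783355 to 28793641, minus strand). The gene had 2 reads in E14.5 replicate 3 (0.0281 FPKM), 1 read in P5 replicate 2 (0.00889 FPKM) and 0 reads in the other 11 samples. A count of 0, which allows up to 3 reads, corresponds to up to 0.0233 FPKM in P5 replicate 1 and up to 0.193 FPKM in 4wk replicate 1, and this covers counting error only. No order of time points can be read from 3 reads. Of the Shh exon bases in the GENCODE annotation of mm9, 24.2% are shared with another gene, and the authors left out reads assigned to more than 1 gene. Of the other ligands of the family, desert hedgehog (Dhh) was between 0.0726 and 0.882 FPKM, while Indian hedgehog (Ihh) did not exceed 0.0708 FPKM in any sample. Both lay under the filter of 1 FPKM and were not tested.

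Hhip, a membrane protein that binds and sequesters Hedgehog ligands, was low but countable before the adult stage. It lies on chromosome 8 (82490014 to 82581905, minus strand). It had 48, 13 and 24 reads at E14.5 (0.274, 0.0565 and 0.0989 FPKM), 18 and 34 at E16.5 (0.0547 and 0.1004 FPKM) and 3 and 42 at E18.5 (0.0191 and 0.143 FPKM). The P5 samples held 71 and 60 reads, 0.162 and 0.157 FPKM. Both 4wk samples held 0 reads, which allows up to 0.0568 and 0.0415 FPKM at their depth, and the 12wk samples held 1 and 8 reads (0.00505 and 0.0310 FPKM). The P5 samples thus overlapped with E14.5 through replicate 1 alone, the sample that stood apart, and lay above all other embryonic samples. The embryonic and adult ranges overlapped through the 3 reads of E18.5 replicate 1. The shallow 4wk samples do not separate an absent from a low level.

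Ptch1, the receptor and itself a target of the pathway, was not called by limma with either scaling. The gene is on chromosome 13 (63610261 to 63674474, minus strand). Its FPKM at E14.5 was 4.54, 4.16 and 4.90, then 2.70 and 4.66 (E16.5), 4.03 and 3.19 (E18.5), 3.40 and 2.97 (P5), 2.24 and 1.49 (4wk), and 1.89 and 1.71 (12wk). With deposited values every adult sample lay below every embryonic sample, and the log2 fold change from embryo to adult was -0.82 ± 0.15 (SE, adjusted p = 0.00022), under the fold threshold. After rescaling the embryonic samples lay between 2.17 and 3.75 and the adult samples between 2.41 and 3.13, with a log2 fold change of -0.13 ± 0.13 (adjusted p = 0.37). The rescaled time point means ran from 3.45 at E14.5 to 2.74 at 12wk, and in that order each time point overlapped with the next. By limma-voom on recovered reads, the log2 fold change was -1.12 ± 0.25 by library totals (adjusted p = 0.0011, called) and -0.16 ± 0.22 with rescaling (adjusted p = 0.55).

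Smo, the transducer that Ptch1 restrains, had the highest FPKM of the 10 genes in every sample, at 12wk on the counted length of Edaradd given below, and lower values at each later age. It lies on chromosome 6 (29685694 to 29711365, plus strand). Its FPKM at E14.5 was 57.3, 61.2 and 58.2, then 51.3 and 47.6 (E16.5), 39.2 and 33.5 (E18.5), 29.4 and 31.1 (P5), 13.1 and 9.23 (4wk), and 6.05 and 6.30 (12wk). No time point overlapped with the next in this order on the deposited scale. On the rescaled scale E18.5 and P5 did overlap, and the other neighbours did not. The mean was 49.8 ± 10.3 FPKM in the embryo (SD, n = 7) and 8.67 ± 3.29 in the adult (SD, n = 4), a ratio of means of 5.74, or 2.98 after rescaling. The log2 fold change from embryo to adult was -2.42 ± 0.21 (SE, adjusted p = 2.1e-07) with deposited and -1.54 ± 0.19 (adjusted p = 1.2e-05) with rescaled values. From P5 to adult it was -1.75 ± 0.28 (adjusted p = 0.00048) and -1.13 ± 0.26 (adjusted p = 0.0069), also called with both scalings.

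Gli2 and Gli3, the transcription factors through which the signal is first read, were close to 0 in the adult. Gli2 acts mainly as an activator and Gli3, once processed, mainly as a repressor. Gli2 lies on chromosome 1 (120730709 to 120950196, minus strand), and its FPKM at E14.5 was 4.53, 3.56 and 3.71, then 2.14 and 3.32 (E16.5), 1.16 and 1.14 (E18.5), 1.098 and 0.944 (P5), 0.0769 and 0.131 (4wk), and 0.143 and 0.0996 (12wk). The adult values rested on 3, 7, 21 and 19 reads and did not overlap with any earlier sample. The ratio of the embryonic to the adult mean was 24.8 as deposited and 12.5 after rescaling. On the log2(FPKM + 1) scale the change was -1.68 ± 0.25 (SE, adjusted p = 3.5e-05) and -1.37 ± 0.22 (adjusted p = 0.00012).

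Gli3 lies on chromosome 13 (15555068 to 15821859, plus strand), and its FPKM at E14.5 was 9.84, 6.44 and 6.71, then 3.92 and 5.36 (E16.5), 3.42 and 1.84 (E18.5), 2.10 and 2.18 (P5), 0.551 and 0.119 (4wk), and 0.114 and 0.113 (12wk). In this order only E18.5 and P5 overlapped. The 4wk samples differed from each other, with 27 and 8 reads in libraries of similar depth. The ratio of the embryonic to the adult mean was 23.9 as deposited and 12.6 after rescaling, and the log2 fold change was -2.28 ± 0.29 (SE, adjusted p = 7.7e-06) and -1.89 ± 0.26 (adjusted p = 3.7e-05). From P5 to adult Gli3 fell with both scalings, by 1.37 ± 0.40 and 1.21 ± 0.36 on the log2 scale (SE, adjusted p = 0.014 and 0.027). The mesenchyme markers that were also lower in the adult are given above, and their part in the fall of Gli2 and Gli3 was not tested.

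Gli1, an activator whose transcription depends on the signal, was highest in E14.5 replicate 1, the sample that stood apart. Its locus is on chromosome 10 (126766945 to 126778645, minus strand). Its FPKM at E14.5 was 5.44, 1.21 and 1.61, then 1.75 and 1.82 (E16.5), 1.071 and 1.17 (E18.5), 1.49 and 0.900 (P5), 0 and 0.172 (4wk), and 0.325 and 0.231 (12wk). The 4wk samples held 0 and 5 reads, where 0 reads allows up to 0.141 FPKM, and the 12wk samples 26 and 24. All adult samples lay below all embryonic and P5 samples with both scalings. The log2 fold change from embryo to adult was -1.24 ± 0.26 (SE, adjusted p = 0.00066) with deposited and -0.92 ± 0.24 (adjusted p = 0.0046) with rescaled values, the second under the fold threshold. Without E14.5 replicate 1 it was -1.04 (adjusted p = 2.5e-05) and -0.74 (adjusted p = 0.00057). By limma-voom on recovered reads Gli1 was called with library totals and with rescaling (-3.38 ± 0.77 and -2.45 ± 0.76, adjusted p = 0.0013 and 0.014).

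Eda, the ectodysplasin ligand, was highest at E14.5 and lowest at 12wk. Its locus is on chromosome X (97170945 to 97596101, plus strand). Its FPKM at E14.5 was 5.44, 4.85 and 4.59, then 3.02 and 2.77 (E16.5), 2.41 and 2.01 (E18.5), 2.52 and 2.10 (P5), 1.65 and 1.11 (4wk), and 0.457 and 0.378 (12wk). On the deposited scale only P5 and E18.5 overlapped among neighbours in order of level. On the rescaled scale E16.5, P5, 4wk and E18.5 (means between 2.22 and 1.87 FPKM) each overlapped with the next, while E14.5 (3.77 FPKM) lay above and 12wk (0.635 FPKM) below them. From embryo to adult the log2 fold change was -1.27 ± 0.24 (SE, adjusted p = 0.00029) with deposited and -0.72 ± 0.24 (adjusted p = 0.017) with rescaled values, the second not called. By limma-voom on recovered reads it was called with both scalings, at -2.46 ± 0.50 and -1.50 ± 0.47 (adjusted p = 0.00051 and 0.014).

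Edar, the receptor, had its highest mean at P5. The gene is on chromosome 10 (58063537 to 58138402, minus strand). Its FPKM at E14.5 was 2.04, 1.25 and 1.42, then 0.989 and 1.11 (E16.5), 0.940 and 1.03 (E18.5), 1.86 and 1.99 (P5), 1.49 and 0.478 (4wk), and 0.237 and 0.182 (12wk). The P5 samples lay above all E16.5 and E18.5 samples and overlapped with E14.5 through replicate 1, the sample that stood apart. The 4wk samples were far apart, on 32 and 14 reads, and the 12wk samples lay below all others on 19 reads each. The change from embryo to adult was -0.55 ± 0.20 (SE, adjusted p = 0.022) with deposited and -0.16 ± 0.21 (adjusted p = 0.52) with rescaled values and was not called with either. From embryo to P5 it was 0.39 ± 0.25 (adjusted p = 0.25) and 0.52 ± 0.27 (adjusted p = 0.18). From P5 to adult it was -0.94 ± 0.27 (adjusted p = 0.014), just under the fold threshold, -0.68 ± 0.29 with rescaled values (adjusted p = 0.10), and, as deposited, -1.18 without 4wk replicate 1 (adjusted p = 0.00084), which is past the threshold. By limma-voom the change from embryo to adult was called by library totals (-1.78 ± 0.45, adjusted p = 0.0028) and not with rescaling (-0.82 ± 0.44, adjusted p = 0.12).

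Edaradd, the adaptor of Edar, was highest at 12wk. Its locus is on chromosome 13 (12569175 to 12612715, minus strand). Its FPKM at E14.5 was 2.195, 2.87 and 3.56, then 1.22 and 1.43 (E16.5), 1.103 and 0.670 (E18.5), 1.69 and 1.73 (P5), 2.14 and 2.45 (4wk), and 4.73 and 4.55 (12wk). It was thus lowest at E18.5 and highest at 12wk, whose samples held 836 and 1049 reads. On the rescaled scale the adult samples (3.00 to 7.20 FPKM) lay above all embryonic samples (0.583 to 2.73 FPKM), and on the deposited scale 4wk overlapped with E14.5. From embryo to adult the log2 fold change was 0.67 ± 0.27 (SE, adjusted p = 0.037) with deposited values, not called, and 1.36 ± 0.26 (adjusted p = 0.00049) with rescaled values, called. By limma-voom on recovered reads it was called with both, at 1.26 ± 0.40 and 2.21 ± 0.38 (adjusted p = 0.011 and 0.00024). The length on which Edaradd was counted, recovered from the FPKM steps, was 8103 bases against 2402 bases of exons in the GENCODE annotation of mm9. The next gene upstream, Ero1lb (12658150 to 12701793, plus strand), was between 1.79 and 7.22 FPKM in the embryo and between 38.3 and 70.6 FPKM in the adult, and the next gene downstream, Lgals8 (12531682 to 12557211, minus strand), was between 6.41 and 16.52 FPKM in the embryo and between 9.75 and 12.9 FPKM in the adult. The part of annotation or of neighbouring genes in the values of Edaradd was not tested.

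Of the steps between neighbouring ages, the step from P5 to 4wk was the one in which limma called any of the 8 tested genes. There 3 genes were called lower with deposited values, Smo (-1.38 ± 0.15, SE, adjusted p = 3.5e-05), Gli3 (-1.25 ± 0.26, adjusted p = 0.0021) and Gli1 (-1.01 ± 0.39, adjusted p = 0.044), where 22.1% of all tested genes were called lower and 2.19% higher. With rescaled values 1 gene, Gli3 (-1.05 ± 0.24, adjusted p = 0.0062), was called, where 8.72% of all were lower and 6.37% higher. The call of Gli1 was lost without P5 replicate 1 (-0.81, adjusted p = 0.21) and without 4wk replicate 1 (-0.89, adjusted p = 0.15). From P5 to adult as a whole, Smo and Gli3 were the 2 genes called lower with both scalings, and Edaradd was called higher with rescaled values (1.20 ± 0.36, adjusted p = 0.026). In that comparison 20.8% of all tested genes were called lower and 2.31% higher as deposited, and 8.53% and 6.05% after rescaling.

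In the other steps limma called 0 of the 8 genes with either scaling. From E14.5 to E16.5 the largest changes in size were those of Edaradd (-0.73 ± 0.17, SE, adjusted p = 0.017), Eda (-0.61 ± 0.15, adjusted p = 0.021) and Gli3 (-0.61 ± 0.24, adjusted p = 0.10). These include E14.5 replicate 1, where Gli3 was 9.84 FPKM against 6.44 and 6.71 in the other E14.5 samples. Without that sample limma again called 0 of the 8 genes with either scaling. An unadjusted p under 0.05 was reached by 4 of the 8 genes with deposited and with rescaled values, as by 32.1% and 31.4% of all tested genes, and 5.15% of all were called as deposited. From E16.5 to E18.5, the largest change was that of Gli2 (-0.78 ± 0.18, adjusted p = 0.023). There 3 genes with deposited values and 1 with rescaled values reached an unadjusted p under 0.05, as did 25.7% and 22% of all genes, and 2.94% of all were called as deposited. From E18.5 to P5, Edar (0.56 ± 0.23, adjusted p = 0.12) and Edaradd (0.53 ± 0.19, adjusted p = 0.078) were the 2 genes with an unadjusted p under 0.05 with either scaling (32.4% of all genes as deposited and 29.2% rescaled), and 5.04% of all genes were called as deposited. From 4wk to 12wk, Edaradd was higher by 0.78 ± 0.19 (adjusted p = 0.024), Eda lower (-0.74 ± 0.17, adjusted p = 0.017), Smo lower (-0.74 ± 0.15, adjusted p = 0.009) and Edar lower (-0.67 ± 0.23, adjusted p = 0.088), all 4 with an unadjusted p under 0.05 with either scaling (26.2% of all genes as deposited and 31.5% rescaled) and under the fold threshold, and 5.15% of all genes were called as deposited. The sum of the sublingual markers, given above, was also lower in both 12wk samples, through the gene that made up that sum at 4wk. The 2 markers at 0 at 4wk were above 0 in 12wk replicate 2. The part of these markers in the gene differences from 4wk to 12wk was not tested. From embryo to P5 as a whole 0 of the 8 were called. An unadjusted p under 0.05 was found for 3 (Gli2, Gli3 and Smo) with deposited and 1 (Gli2) with rescaled values, and for 42% and 35.2% of all genes, where 8.14% of all genes were called lower and 4.14% higher as deposited and 3.9% and 5.55% after rescaling. By limma-voom on recovered reads by library totals, these comparisons had 1 call from E14.5 to E16.5 (Edaradd, 9.82% of all genes), 1 from E16.5 to E18.5 (Gli2, 6.37% of all), 1 from E18.5 to P5 (Edaradd, 10.3% of all), 2 from 4wk to 12wk (Eda and Edar, 5.67% of all) and 2 from embryo to P5 (Gli2 and Gli3, 20% of all).

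Ratios within a sample do not move with the scaling of that sample apart from the small constant added, and they compared the 10 genes with each other and with markers. Of 10 ratios of FPKM + 0.1, 4 differed between embryo and adult at an adjusted p below 0.05 (two-sided exact permutation test over all 330 labelings of 7 and 4 samples, smallest p = 0.0061, Benjamini-Hochberg over the 10). Ptch1 relative to Smo was higher in the adult. Its log2 ratio was -3.59 ± 0.34 in the embryo (SD, n = 7, range -4.20 to -3.25) and -2.12 ± 0.47 in the adult (SD, n = 4, range -2.55 to -1.62), and the difference of 1.47 had an exact permutation p of 0.0061 (adjusted p = 0.03). The ranges did not overlap, and the P5 samples were at -3.07, just above the embryonic range, and -3.34, within it. Ptch1 relative to the mean log2 level of the mesenchyme markers moved in the same direction, from -5.27 ± 0.28 (SD, n = 7) to -3.22 ± 0.62 (SD, n = 4), with a difference of 2.04 (exact permutation p = 0.0061, adjusted p = 0.03). The adult range of -3.80 to -2.51 lay above the embryonic range of -5.72 to -4.93.

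Within the ectodysplasin genes, Edar relative to Edaradd was lower in the adult, at -0.40 ± 0.63 (SD, n = 7) in the embryo and -2.63 ± 1.66 (SD, n = 4) in the adult on the log2 scale. The difference of -2.24 had an exact permutation p of 0.018 (adjusted p = 0.045), with overlap, since 4wk replicate 1 was at -0.49 and the 12wk samples were at -3.84 and -4.05. Eda relative to Edar was 1.40 ± 0.31 (SD, n = 7) in the embryo and 0.67 ± 0.39 (SD, n = 4) in the adult, a difference of -0.73 (exact permutation p = 0.012, adjusted p = 0.04). Here too the ranges overlapped, since 4wk replicate 2 was at 1.06, while 4wk replicate 1 was at 0.13. The P5 samples (0.42 and 0.07) had a lower Eda to Edar ratio than all embryonic samples (0.90 to 1.87). Without E14.5 replicate 1 the adjusted p of both ratios passed 0.05 (0.071 and 0.063) while the differences were -2.19 and -0.73.

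The other 6 ratios did not pass the threshold. The log2 ratio of Gli1 to Gli3 was -1.43 ± 0.61 in the embryo and -0.19 ± 1.70 in the adult (exact permutation p = 0.11, adjusted p = 0.19, n = 7 and 4), where 4wk replicate 1, with 0 Gli1 reads, was at -2.70 and the 12wk samples at 0.99 and 0.64. Without that sample the difference was 2.07 in place of 1.23, and its adjusted p was 0.042. The ratio of Gli1 to Gli2 differed by 0.75 (exact permutation p = 0.12, adjusted p = 0.19, n = 7 and 4), and Gli1 to the mesenchyme markers by 0.26 (exact permutation p = 0.67, adjusted p = 0.67, n = 7 and 4). The ratios of Hhip to Ptch1 (0.24), Shh to the epithelium markers (0.59) and Edar to the epithelium markers (-0.64) had adjusted p of 0.49, 0.19 and 0.42 in the same exact permutation test, and those of Hhip and Shh rest on the added constant where reads are 0 or few. The adult ratios with Gli1 also depend on the added 0.1. Adult FPKM ran from 0 to 0.325 for Gli1, from 0.0769 to 0.1435 for Gli2 and from 0.113 to 0.551 for Gli3.

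**Figure D3:**
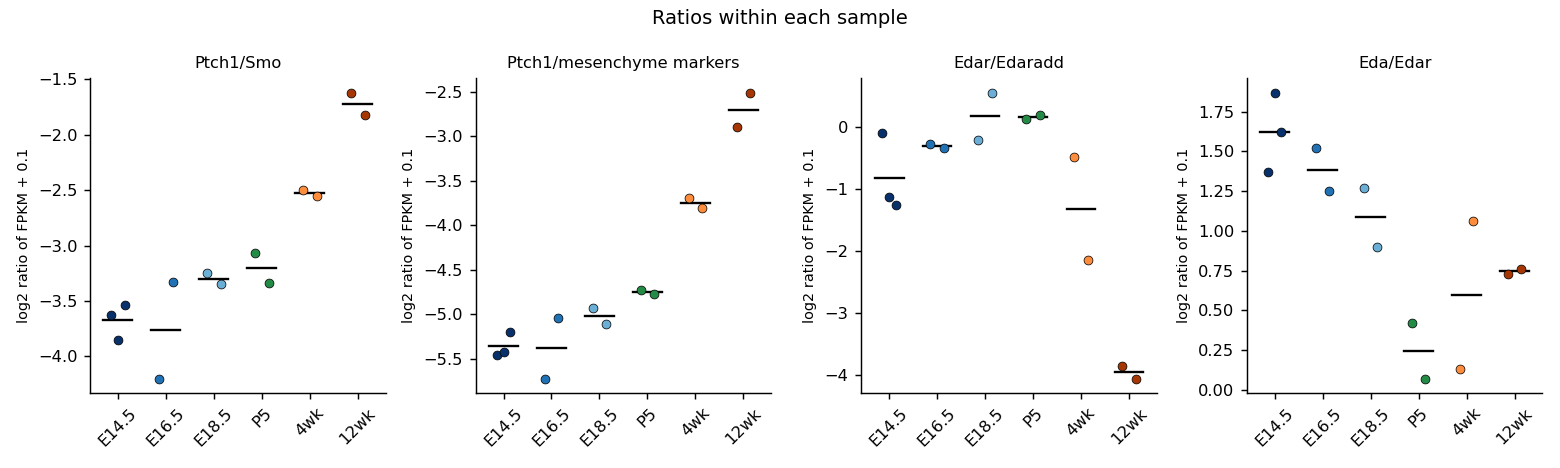
Log2 ratios of FPKM + 0.1 within each sample by time point for the 4 ratios that differed between embryo and adult, with points for samples and bars for means. The adult Ptch1/Smo values of -2.55 to -1.62 lie above the embryonic range, and the 12wk Edar/Edaradd values of -3.84 and -4.05 lie below every other sample.

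The other genes of the Hedgehog pathway were described by a list. Of 31 such genes in the data (ligand release and co-receptor genes, ciliary and intracellular regulators, and targets), 26 were tested, and 18 were called lower and 0 higher with deposited values (38% and 5.58% of all tested genes), with a median log2 fold change of -1.50 against -0.75 over all genes. With rescaled values 13 were called lower, 1 higher and 12 not at all (14.7% of all tested genes lower and 13.8% higher), with a median of -1.02 against -0.08. The cell cycle genes Ccnd2 and Ccnd1, which the pathway can induce and which many other signals also control, changed by -4.66 ± 0.37 and -2.56 ± 0.26 as deposited (SE, adjusted p = 1.3e-07 and 1.1e-06) and -3.88 and -1.63 after rescaling. Ccnd2 was between 142 and 153 FPKM at E14.5 and between 1.34 and 4.23 FPKM in the adult. Tulp3, which carries proteins into the primary cilium where Hedgehog signals are processed, changed by -2.64 ± 0.24 (adjusted p = 3.6e-07) and -1.87 after rescaling. The co-receptor Cdon changed by -2.46 ± 0.31 (adjusted p = 7.2e-06) and -1.70, and the ciliary protein Evc2 by -2.29 ± 0.22 (adjusted p = 7.5e-07) and -1.65. The genes named next were singled out for their roles after their values were seen. The co-receptor Gas1 and the Gli inhibitor Sufu fell with both scalings (-2.22 and -2.07 as deposited, -1.34 and -1.29 after rescaling). The co-receptor Boc was called with deposited values (-1.44) and not after rescaling (-0.59). Spop, an adaptor for the destruction of Gli proteins, was the gene called higher after rescaling (1.15 ± 0.11, adjusted p = 1e-06), at 0.22 ± 0.11 as deposited (adjusted p = 0.078).

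Of 24 other genes of the ectodysplasin pathway (a second receptor, NF-kappaB components and targets), 22 were tested. With deposited values 8 were called lower and 0 higher (38% and 5.58% of all tested genes), with a median log2 fold change of -0.80 against -0.75 over all genes. With rescaled values 4 were called lower and 0 higher (14.7% and 13.8% of all), with a median of -0.03 against -0.08. The secreted modulator Sostdc1 changed by -2.58 ± 0.26 (SE, adjusted p = 1e-06) and -1.75 after rescaling, and the activin antagonist Fst by -2.24 ± 0.21 (adjusted p = 5.5e-07) and -1.42. The membrane receptor Lrp4 changed by -1.67 ± 0.23 (adjusted p = 2e-05) and -1.11. The adhesion molecule Madcam1 changed by -1.37 ± 0.22 (adjusted p = 5.4e-05) and -1.16, and had 0 FPKM in all 4 adult samples, so that the size of its change depends on the constant added. The 8 components of NF-kappaB and of the kinase that releases it (Chuk, Ikbkb, Ikbkg, Nfkb1, Nfkb2, Rela, Relb and Nfkbia), grouped after their values were seen, were not called with either scaling, at log2 fold changes from -0.86 to -0.13 as deposited and from -0.12 to 0.73 after rescaling. Without E14.5 replicate 1, the deposited values gave 5 calls in place of 8, and 12wk replicate 2 left out gave 5 as well.

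**Figure D4:**
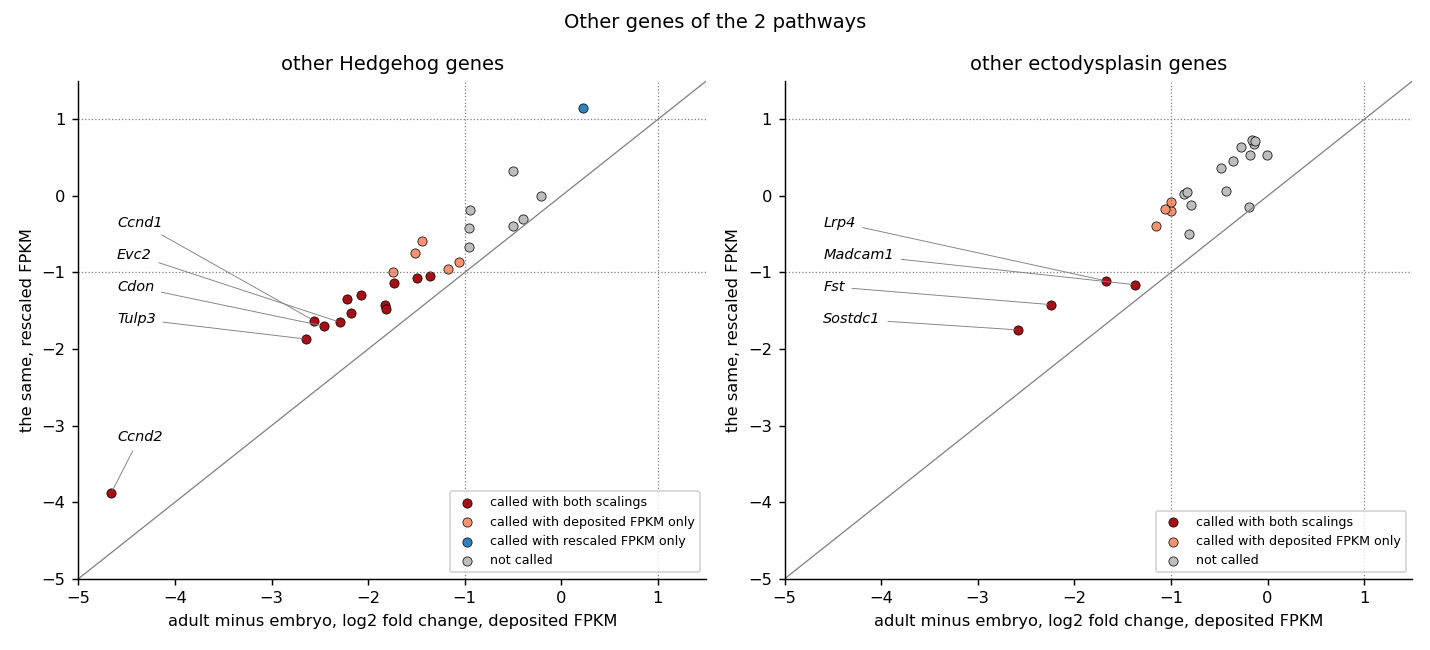
Log2 fold change from embryo to adult of the 26 other Hedgehog and 22 other ectodysplasin genes tested, with deposited FPKM on the horizontal and rescaled FPKM on the vertical axis, coloured by call. On the rescaled axis 13 Hedgehog genes were called lower and Spop higher, and of the ectodysplasin genes Sostdc1, Fst, Lrp4 and Madcam1 were called lower.

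For each tested gene, the genes with the most similar time course were found by the Euclidean distance between the 6 centred time point means of log2(FPKM + 1), over 14649 other genes. Nearest to Smo were Ltbp1 (distance 0.25) and Adamts15 (0.25), a binder of latent TGF-beta and a secreted protease. Nearest to Gli2 were Dnmt3b (0.13) and Tead1 (0.15), a DNA methyltransferase and a transcription factor, and nearest to Gli3 were 9830001H06Rik (0.07) and Adamts18 (0.12). Nearest to Ptch1 were Fbxo38 (0.07) and Nr2c2 (0.09), and nearest to Gli1 were Ep400 (0.08) and Gpatch8 (0.10). Nearest to Eda were the Wnt enhancer Rspo3 (0.12) and Fam171a1 (0.15). Edar had 5930403L14Rik (0.18) and Clstn3 (0.19), and Edaradd had Fbxw7 (0.44) and Doc2b (0.48), the most distant neighbours of the 8 genes. The distances describe 6 means of deposited values and carry no test.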

How the data were processed

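Submandibular gland RNA was sequenced in 13 samples (50 bp single-end). The authors mapped reads to mm9 with TopHat2 2.0.13 and Bowtie2 2.2.6, counted reads of 1 location and 1 gene with featureCounts, and deposited FPKM per gene. The authors state that FPKM were derived after normalization with DESeq2 (1.10.1 in the submitters' processing notes). The deposited values do not match a normalization between samples: their median-of-ratios factors ran from 1.148 to 1.38 in the embryo and from 0.617 to 0.714 in the adult, and they equal whole reads divided by the reads on genes and by gene length. Whole reads were recovered for 100% of the 20268 genes above 0 (tolerance 1e-06 of a read). Depth was between 5817293 and 48314162 reads, and intervals or floors cover counting error only.

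The 14650 genes that reached 1 FPKM in any sample were fitted as log2(FPKM + 1) with limma 3.58.1 in R 4.3.3 (mean-variance trend, Benjamini-Hochberg), with all 13 samples grouped by stage or by time point. The code was tested on simulated data. Median-of-ratios factors came from the 13039 genes above 0 in all samples. Ratios, permutation tests and figures used Python 3.11.15, numpy 2.4.6, pandas 2.3.3, scipy 1.17.1 and matplotlib 3.10.9. Replicates are biological according to the authors, although no label names the animals.

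The members and lists were chosen with earlier results of these data known. Named are the 10 genes, up to 5 genes per direction and list with the largest change among those called with both scalings, and the 2 nearest profiles of each gene. The alternatives were rescaling, other pseudocounts, filters and thresholds, no trend, the replicate number as a block, each sample left out, for the ratios 12wk alone as adult and E14.5 alone as embryo, and, chosen after seeing the data, limma-voom on recovered reads and rescaling without E14.5 replicate 1. Promoter windows are from RefSeq on GRCm38.p6, and gene positions from GENCODE on mm9.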

Additional observations from a re-analysis of the deposited data

Results flagged for a closer look

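Within the embryonic and adult stages, 19 sets of values of the 10 genes were examined for a sample far from the others, and 4 had one. No rate by chance can be set beside this, since the sets pool ages and include values on few reads. Gli1 in E14.5 replicate 1 was 5.44 FPKM against a median of 1.61 FPKM in the embryo. Gli3 in 4wk replicate 1 was 0.551 FPKM against a median of 0.117 FPKM in the adult, and this sample is the shallowest of the 13. Hhip in 12wk replicate 2 was 0.0310 FPKM, on 8 reads, against a median of 0.00252 FPKM in the adult. Shh in E14.5 replicate 3 was 0.0281 FPKM, on 2 reads, against 0 in the other embryonic samples.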

How the results depend on the processing

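No result that passed its threshold changed direction under any alternative run, but some that did not pass changed sign. With 1 sample left out, the difference in Gli1 to the mesenchyme markers ran from -0.15 to 0.94. The change of Edaradd from embryo to P5 ran from -0.11 to 0.13. For the 8 genes, the calls from embryo to adult (5) were 5 in each of the 13 fits that left out 1 sample. Rescaling lowered the calls from P5 to 4wk from 3 to 1 and those of the other ectodysplasin genes from 8 to 4, and gave 1 and 4 also without E14.5 replicate 1. A pseudocount of 0.1 raised the calls from embryo to adult from 5 to 7 (57.5% of all genes). It gave 1 call from embryo to P5 (2412 of all 14650 genes), 6 from P5 to adult (36.3% of all), 1 from E14.5 to E16.5 (8.08%), 1 from E16.5 to E18.5 (4.22%), 5 from P5 to 4wk (39.4%) and 2 from 4wk to 12wk (11.3%). Limma-voom by library totals gave 2 calls from embryo to P5 (20% of all genes), 7 from P5 to adult (38.2%), 8 from embryo to adult (57.6%), 1 from E14.5 to E16.5 (9.82%), 1 from E16.5 to E18.5 (6.37%), 1 from E18.5 to P5 (10.3%), 5 from P5 to 4wk (38.5%) and 2 from 4wk to 12wk (5.67%). With rescaling, in the same order, it gave 1 (17.7%), 7 (23.1%), 6 (39.7%), 1 (9.99%), 1 (5.8%), 2 (9.67%), 4 (22.1%) and 3 (6.2%), with 5 for the other ectodysplasin genes. Leaving out 1 sample gave 0 to 1 calls from embryo to P5 (1 without E18.5 replicate 2), 2 to 4 from P5 to adult (4 without 4wk replicate 1), 0 to 1 from E16.5 to E18.5 (1 without E16.5 replicate 1), 0 to 1 from 4wk to 12wk (1 without 4wk replicate 2), 2 to 3 from P5 to 4wk, 17 to 19 for the other Hedgehog and 5 to 8 for the other ectodysplasin genes. The causes were not tested. Of the 10 ratios 7 passed with a pseudocount of 1, and 0 to 4 with 1 sample left out, where fewer labelings raise the smallest p, so that these p say nothing about stability. With 12wk alone as adult, the difference in Edar to Edaradd moved from -2.24 to -3.55 and that in Ptch1 to the mesenchyme markers from 2.04 to 2.56, and with E14.5 alone as embryo that in Shh to the epithelium markers from 0.59 to -0.05, by more than 1 SD in each case.

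Samples of 1 replicate number did not deviate together (mean r of deviations -0.016 over 30 pairs, 0.012 over 40 pairs of different numbers), so the numbers pair nothing. With the replicate block the calls from embryo to adult were 5 and no call of the 8 genes changed. In the adult, low reads limit Hhip, Gli1, Gli2, Gli3 (83 reads in the adult samples together) and Edar (84 reads), and the 4wk samples are the shallowest. The ratios with Edar share this limit.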
